A study of Homo sapiens with 8 samples.

Results

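Transcript levels of the fibroblast growth factor (FGF) ligands FGF18 and FGF2, the FGF-binding protein FGFBP1, the receptor tyrosine kinases FGFR1, FGFR2, FGFR3 and FGFR4, and the kinase-less receptor FGFRL1 were described in OVISE cells, an established line of ovarian clear cell carcinoma. These 8 genes are 8 of the 27757 loci in the deposited table, found through the transcript accessions of each locus. Each of the 8 loci carried a single gene symbol, and all 8 were among the 12112 loci that reached 1 FPKM (fragments scaled by transcript length and by sequenced fragments) in at least 2 libraries and were tested. FGF18 was taken up because of its fall with epidermal growth factor (EGF) in cells with wild-type SYK, and the other genes because they belong to the same ligand and receptor system. The values of all 8 genes under EGF in wild-type cells are therefore given as a description, with no p-value. So are the genotype differences of FGF18, which share libraries with that choice. Genotype p-values of the other genes rest partly on the same libraries, so they may not be independent of the choice.

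The study asked how SYK, a cytoplasmic tyrosine kinase with a known role in lymphocytes, bears on the EGF response of these cells. There were 4 groups of 2 libraries each: SYK-KO EGF cells carried the SYK knockout and were kept for 24 h with EGF at 50 ng/ml, SYK-WT EGF cells had wild-type SYK and the same exposure, and SYK-KO and SYK-WT cells were untreated. Per the labels, the knockout was made with a Cas9 nickase and a pair of guides in exon 2 of SYK, followed by puromycin selection, isolation of single-cell clones and an immunoblot. The labels do not say from how many SYK-KO clones RNA was taken, whether the SYK-WT cells were themselves cloned, or whether 2 libraries of a group stand for separate cultures. Each genotype comparison thus sets these SYK-KO cells against these SYK-WT cells, and p-values rest on the spread within pairs of libraries, which may be technical.

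FGFs are secreted ligands that bind FGF receptors together with heparan sulfate, the sulfated sugar chain of cell-surface proteoglycans. Ligand binding pairs the receptors, and their kinases then phosphorylate the docking protein FRS2, which leads through GRB2 and SOS to RAS and ERK. FGF18 belongs to the FGF8 subfamily and is known for its action through FGFR3, above all in cartilage and bone, and raised FGF18 has been described in high-grade serous ovarian carcinoma. FGFBP1 is a secreted carrier that frees FGF2 from the matrix, and FGFRL1 binds ligand but lacks the kinase domain.

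The sequences below give the edited site that defines the genotype, and the stretch before the transcription start of FGF18, FGFR2 and FGFR3. FGF18 and FGFR2 were lower with EGF in both genotypes, and FGFR3 was the member with the largest genotype difference. Whether these stretches bear on the levels was not tested. The guides are in lower case with the PAM in capitals, 5′ to 3′. The top strand-nicking guide lies at chr9:90844042-90844061 on the strand opposite to SYK, and the bottom strand-nicking guide at chr9:90844080-90844099 on the same strand as SYK (GRCh38). Both fall in exon 2, in coding sequence in 4 of the annotated SYK transcripts that hold them.
top strand-nicking guide: cggacagggcgaagccacccAGG
bottom strand-nicking guide: cacaccactacaccatcgagCGG

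Upstream windows of 250 bases were taken from RefSeq (GRCh38.p14), and 7 of the 8 genes matched an entry. Capitals mark matches, on either strand, to SP1 (GGGCGG, which reads CCGCCC on the other strand) or to TCF (CTTTGAT). The FGF18 window is chr5:171419397-171419646 on the plus strand, the FGFR2 window is chr10:121598445-121598694 on the minus strand and is the most upstream of 5 for that gene, and the FGFR3 window is chr4:1793043-1793292 on the plus strand.
FGF18: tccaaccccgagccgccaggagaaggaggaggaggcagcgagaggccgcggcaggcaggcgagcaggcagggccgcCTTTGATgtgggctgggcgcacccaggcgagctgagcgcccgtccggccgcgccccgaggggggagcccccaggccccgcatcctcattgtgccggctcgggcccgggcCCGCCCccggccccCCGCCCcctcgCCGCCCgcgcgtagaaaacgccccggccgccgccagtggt
FGFR2: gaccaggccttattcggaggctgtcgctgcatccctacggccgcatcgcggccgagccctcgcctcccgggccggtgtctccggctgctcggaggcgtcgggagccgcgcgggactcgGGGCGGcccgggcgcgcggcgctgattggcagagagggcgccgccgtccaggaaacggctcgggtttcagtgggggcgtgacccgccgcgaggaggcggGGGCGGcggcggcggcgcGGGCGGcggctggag
FGFR3: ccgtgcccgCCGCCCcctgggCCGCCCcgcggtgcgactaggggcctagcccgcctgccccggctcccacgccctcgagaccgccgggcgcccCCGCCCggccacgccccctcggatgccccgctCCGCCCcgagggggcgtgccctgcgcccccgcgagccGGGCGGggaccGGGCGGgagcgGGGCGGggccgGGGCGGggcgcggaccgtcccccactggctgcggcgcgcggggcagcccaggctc

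The FGF18 window held 3 SP1 matches and 1 TCF match, the FGFR2 window 3 SP1 matches, and the FGFR3 window 8 SP1 matches. No match overlapped another in these windows. An SP1 match occurred in 42.6% and a TCF match in 2.26% of 35116 windows of this length. The GC content was 78.8% for FGF18, 78.4% for FGFR2 and 86.8% for FGFR3. The other letters searched were AP1 (TGANTCA, in 6.57% of all windows), ETS (CCGGAAG, 8.52%), FOX (GTAAACA, 2.98%), CRE (TGACGTCA, 1.65%) and EBOX (CACGTG, 6.34%), and none of them matched in the printed windows. FGFRL1 also held 1 TCF match, with 4 SP1 matches and 1 EBOX match, and the FGFBP1 window, with 40.8% GC, held no match to any of the 7 motifs. A match is a string of letters and not a binding site.

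Library depth, estimated from the steps between low FPKM values, ran from 22800000 to 26900000 fragments. The SYK-WT pair lay furthest apart, with a median absolute difference of 0.15 between its libraries on the log2(FPKM + 1) scale, against 0.0669 to 0.0828 in the other groups. All 8 epithelial and clear cell carcinoma markers passed the filter, with a summed level of 6817 to 14416 FPKM, while the 5 fibroblast, 4 endothelial and 5 leukocyte markers stayed below 1 FPKM in every library. SYK itself (chromosome 9, 93563962 to 93660842, hg19) had 2.80 and 3.16 FPKM in SYK-KO EGF, 3.88 and 3.62 FPKM in SYK-WT EGF, 3.11 and 3.43 FPKM in SYK-KO, and 4.91 and 5.30 FPKM in SYK-WT libraries. A transcript level does not check an edit of the coding sequence. In bulk samples, fewer cells that express a gene and less RNA per cell cannot be told apart.

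Among the ligands, FGF18 (chromosome 5, 170846667 to 170884630, hg19) was abundant without EGF in both genotypes and lower with it. Its level was 19.0 and 20.2 FPKM in SYK-KO EGF libraries, 6.50 and 8.49 FPKM in SYK-WT EGF libraries, 37.9 and 39.6 FPKM in SYK-KO libraries, and 24.5 and 37.0 FPKM in SYK-WT libraries. The 4 EGF libraries were the lowest of the 8, no groups overlapped, and the SYK-WT pair was the widest. In SYK-WT cells, the contrast FGF18 was chosen on, the mean was 4.10-fold lower with EGF (log2 difference -1.88 ± 0.180, SE, n = 2 libraries per group). In SYK-KO cells, whose libraries that choice did not use, FGF18 fell with EGF to 19.6 ± 0.834 FPKM, against 38.8 ± 1.23 FPKM in untreated SYK-KO cells (SD, n = 2), 1.97-fold lower. The log2 difference was -0.95 ± 0.180 (SE; limma, Benjamini-Hochberg adjusted p = 0.0146 over all tested loci). It lost that call when any of the 4 libraries of SYK-KO cells was left out (limma adjusted p from 0.0752 to 0.109) and with no filter on low values (0.0517), while the log2 difference stayed between -0.99 and -0.91.

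With EGF, FGF18 averaged 19.6 FPKM in SYK-KO cells, 2.62-fold above the 7.50 FPKM of SYK-WT cells. The corresponding log2 difference was 1.29 ± 0.180 (SE, n = 2 libraries per group). Untreated, it averaged 38.8 FPKM in SYK-KO cells and 30.8 FPKM in SYK-WT cells, a log2 difference of 0.35 ± 0.180. The untreated difference rested on the wide SYK-WT pair: with replicate 1 of that pair left out it was 0.064, and with replicate 2 left out 0.64. The log2 response to EGF in SYK-KO cells minus that in SYK-WT cells was 0.94 ± 0.254, and 1.23 without SYK-WT replicate 1. FGF18 ranked second of the 8 genes by FPKM in SYK-KO cells and sixth in SYK-WT EGF cells.

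FGF2, the classical basic FGF, which leaves cells without a signal peptide, was a low transcript that was higher in SYK-KO cells (chromosome 4, 123747863 to 123844159, hg19). It had 7.57 and 7.05 FPKM in SYK-KO EGF, 3.73 and 3.92 FPKM in SYK-WT EGF, 6.11 and 6.07 FPKM in SYK-KO, and 2.72 and 1.80 FPKM in SYK-WT libraries. Every SYK-KO library was above every SYK-WT library, with or without EGF. Untreated, FGF2 rose 2.69-fold in SYK-KO over SYK-WT cells, a log2 difference of 1.13 ± 0.126 (SE; limma, Benjamini-Hochberg adjusted p = 0.000482). Under EGF the rise was 1.91-fold, a log2 difference of 0.78 ± 0.126 (limma adjusted p = 0.0023). In the authors' deposited table FGF2 had q = 0.000583 in both genotype comparisons. FGFR1, FGFR2 and FGFR3 had the same q in both, and FGFRL1 had it with EGF, so this value does not rank the genes. Under EGF the log2 difference was 0.23 in SYK-KO cells (limma adjusted p = 0.287), a value that passed without SYK-WT replicate 1 (0.0382) or 2 (0.037). It was 0.58 in SYK-WT cells.

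FGF18 was the more abundant ligand in every library, but by very different margins. The ratio of FGF18 to FGF2 FPKM was 2.51 and 2.87 in SYK-KO EGF, 1.74 and 2.16 in SYK-WT EGF, 6.21 and 6.53 in SYK-KO, and 9.0 and 20.5 in SYK-WT libraries. The 4 EGF libraries held the 4 lowest ratios. Of 20 other FGF ligand genes, 2 passed the filter, FGF13 and FGF11. FGF13, an intracellular FGF homologous factor, averaged 1.38 FPKM in SYK-KO and 3.30 FPKM in SYK-WT cells (log2 difference -0.85 ± 0.106, SE; limma adjusted p = 0.000817). With EGF, FGF13 averaged 1.36 FPKM in SYK-KO and 2.70 FPKM in SYK-WT cells (-0.65; limma adjusted p = 0.00239). FGF11, another homologous factor, was near the filter, with means of 0.749 FPKM in SYK-KO EGF, 1.03 FPKM in SYK-WT EGF, 0.784 FPKM in SYK-KO and 1.16 FPKM in SYK-WT cells, and passed no test; it reached 1 FPKM in SYK-WT libraries alone.

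FGFBP1 was by far the most abundant of the 8 genes in every library (chromosome 4, 15937193 to 15940363, hg19). It had 1047 and 863 FPKM in SYK-KO EGF, 1078 and 1090.1 FPKM in SYK-WT EGF, 877 and 742 FPKM in SYK-KO, and 795 and 651 FPKM in SYK-WT libraries. The SYK-WT EGF libraries were the 2 highest, and the SYK-KO range overlapped with those of SYK-KO EGF and of SYK-WT. The log2 difference with EGF was 0.24 ± 0.130 in SYK-KO cells (SE; limma adjusted p = 0.292, 95% interval -0.07 to 0.54), and 0.59 ± 0.130 in SYK-WT cells. Between genotypes FGFBP1 differed by -0.19 with EGF (limma adjusted p = 0.268) and by 0.17 untreated (limma adjusted p = 0.337) on the log2 scale. The authors' deposited table gave q = 0.487 with EGF and q = 0.532 untreated.

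**Figure D1:**
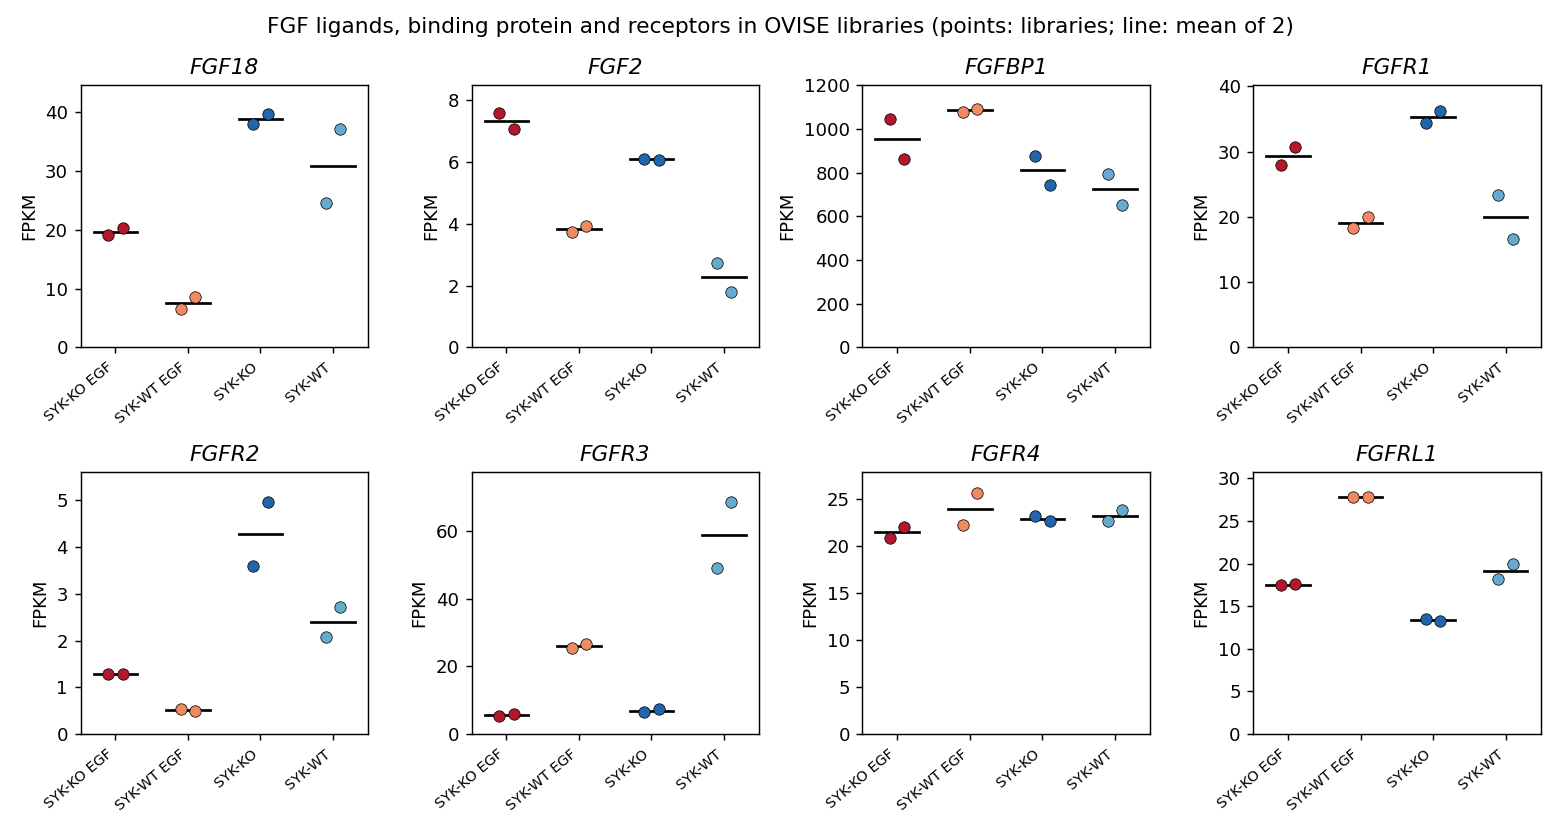
FPKM of the 8 genes in each library (points), with the mean of the 2 libraries of a group (line), for SYK-KO EGF, SYK-WT EGF, SYK-KO and SYK-WT cells; each panel has its own axis from 0. FGF18 sits between 6.50 and 20.2 FPKM in the EGF libraries and between 24.5 and 39.6 FPKM in the untreated ones, and FGFR3 between 5.32 and 7.29 FPKM in the SYK-KO libraries of either treatment and between 25.5 and 68.6 FPKM in the SYK-WT ones.

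Among the receptors, FGFR3, the receptor best known for FGF18 signalling in the growth plate, had the largest genotype difference of the 8 genes (chromosome 4, 1795039 to 1810599, hg19). It had 5.32 and 5.86 FPKM in SYK-KO EGF, 25.5 and 26.7 FPKM in SYK-WT EGF, 6.43 and 7.29 FPKM in SYK-KO, and 49.1 and 68.6 FPKM in SYK-WT libraries. All SYK-KO libraries were below all SYK-WT libraries by a wide gap. Untreated, FGFR3 fell to 6.86 ± 0.611 FPKM in SYK-KO cells, against 58.9 ± 13.8 FPKM in SYK-WT cells (SD, n = 2), 8.59-fold lower. The log2 difference was -2.91 ± 0.143 (SE; limma, Benjamini-Hochberg adjusted p = 1.27e-05), lower than that of all but 0.107% of tested loci. With EGF it fell to 5.59 ± 0.384 FPKM in SYK-KO cells, against 26.1 ± 0.841 FPKM in SYK-WT cells (SD, n = 2). That was 4.66-fold lower, a log2 difference of -2.04 ± 0.143 (SE; limma adjusted p = 6.60e-05). In the authors' deposited table q was 0.000583 in both.

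Under EGF in SYK-KO cells the log2 difference of FGFR3 was -0.25 ± 0.143 (SE; limma adjusted p = 0.301), and 11.1% of tested loci lay lower. In SYK-WT cells the difference was -1.13 ± 0.143. The response in SYK-KO cells minus that in SYK-WT cells was 0.87 ± 0.202 (limma adjusted p = 0.313), so a difference between the genotypes did not pass the test with all libraries. Without SYK-WT replicate 1 that difference was 1.11. It holds the SYK-WT response, which is given as a description, so nothing is read from it. The SYK-KO response stayed at -0.25 without SYK-WT replicate 1 or 2, but whether it was called depended on these libraries being in the fit.

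FGFR1, a broadly expressed receptor that also binds FGF2, was the opposite case between genotypes (chromosome 8, 38268656 to 38326352, hg19). It had 27.9 and 30.7 FPKM in SYK-KO EGF, 18.2 and 20.01 FPKM in SYK-WT EGF, 34.3 and 36.2 FPKM in SYK-KO, and 23.3 and 16.6 FPKM in SYK-WT libraries. All SYK-KO libraries were above all SYK-WT libraries. Untreated, FGFR1 rose 1.77-fold in SYK-KO over SYK-WT cells (log2 difference 0.81 ± 0.140, SE; limma adjusted p = 0.00332). With EGF it rose 1.53-fold (0.59 ± 0.140; limma adjusted p = 0.0116), a pass that was lost without SYK-WT EGF replicate 1 (0.075) or SYK-KO EGF replicate 2 (0.0733). The authors' deposited table gave FGFR1 q = 0.000583 in both. The log2 difference with EGF was -0.26 in SYK-KO cells (limma adjusted p = 0.277), past the threshold with only these groups in the fit (0.0345) and without SYK-WT replicate 1 (0.0296) or 2 (0.0294). In SYK-WT cells it was -0.04, with overlapping groups. Leaving out SYK-WT replicate 2 gave -0.27 for SYK-WT cells, and leaving out its partner, replicate 1, gave 0.19. This value too turned on the SYK-WT pair.

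FGFR2, whose epithelial isoform answers to ligands from the stroma, was the lowest receptor in every library and fell with EGF in both genotypes (chromosome 10, 123237844 to 123357972, hg19). It had 1.29 and 1.29 FPKM in SYK-KO EGF, 0.536 and 0.50 FPKM in SYK-WT EGF, 3.61 and 4.98 FPKM in SYK-KO, and 2.07 and 2.72 FPKM in SYK-WT libraries. Every group was apart from every other. In SYK-KO cells the mean with EGF was 3.33-fold below that of untreated SYK-KO cells, a log2 difference of -1.20 ± 0.139 (SE; limma, Benjamini-Hochberg adjusted p = 0.00215). In SYK-WT cells the mean was 4.63-fold lower with EGF and the log2 difference was -1.16, smaller than the ratio of the means because adding 1 FPKM compresses low values. FGFR2 rose in SYK-KO over SYK-WT cells 1.79-fold untreated (0.63 ± 0.139; limma adjusted p = 0.00915) and 2.49-fold with EGF (0.59 ± 0.139; limma adjusted p = 0.0111). The untreated call ended without SYK-KO replicate 2 (0.45; limma adjusted p = 0.0585), and the call with EGF without any of the 4 EGF libraries (0.0521 to 0.0622). The authors' deposited table gave q = 0.000583 in both.

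FGFR4, the receptor best known for FGF19 signalling in liver, stayed within a 1.23-fold range over all 8 libraries (chromosome 5, 176513873 to 176525143, hg19). It had 20.9 and 22.0 FPKM in SYK-KO EGF, 22.2 and 25.6 FPKM in SYK-WT EGF, 23.2 and 22.6 FPKM in SYK-KO, and 22.6 and 23.8 FPKM in SYK-WT libraries. The ranges of SYK-WT EGF, SYK-KO and SYK-WT overlapped, and the SYK-KO EGF libraries were the 2 lowest. The log2 difference was -0.09 with EGF in SYK-KO cells (limma adjusted p = 0.523, 95% interval -0.27 to 0.09). Between genotypes it was -0.15 with EGF (limma adjusted p = 0.17, 95% interval -0.33 to 0.04) and -0.02 untreated (limma adjusted p = 0.862, 95% interval -0.20 to 0.17). The authors' deposited table gave q = 0.586 with EGF and q = 0.959 untreated.

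FGFRL1, the receptor without a kinase domain, was higher with EGF and lower in SYK-KO cells (chromosome 4, 1005610 to 1020686, hg19). It had 17.5 and 17.6 FPKM in SYK-KO EGF, 27.8 and 27.8 FPKM in SYK-WT EGF, 13.5 and 13.3 FPKM in SYK-KO, and 18.2 and 20.01 FPKM in SYK-WT libraries. The pairs lay close together and no groups overlapped. In SYK-KO cells FGFRL1 rose 1.31-fold with EGF (log2 difference 0.36 ± 0.0665, SE; limma adjusted p = 0.0128), lost without any of the 4 SYK-KO libraries (0.0827 to 0.121). In SYK-WT cells the mean was 1.46-fold higher with EGF, a log2 difference of 0.52. Between genotypes it fell by 0.63 on the log2 scale with EGF (SE 0.0665; limma adjusted p = 0.000365) and by 0.48 untreated (limma adjusted p = 0.00133). The authors' deposited table gave q = 0.000583 with EGF and q = 0.0142 untreated.

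Counts over the 8 genes are given beside the share of all tested loci that passed the same test. FGF18 is left out of the genotype counts, since it was chosen on libraries of these comparisons. The other 7 genes belong to the same system, but were taken up with earlier results of these data known. Their genotype calls share libraries with the choice and may not be independent of it. With EGF, 5 of the 7 other genes passed between SYK-KO and SYK-WT cells (FGF2, FGFR1 and FGFR2 higher, FGFR3 and FGFRL1 lower), where 43.6% of all tested loci passed. Untreated, the same 5 passed in the same directions, where 40.5% of all loci passed. Under EGF in SYK-KO cells, 3 of 8 passed (FGF18 and FGFR2 lower, FGFRL1 higher), where 11.8% of all loci passed, and this count ran from 1 to 6 as single libraries were left out. Under EGF in SYK-WT cells, the contrast used to choose the genes, 6 of 8 lay past the same threshold, beside 26.7% of all loci, and nothing is read from that count. There, FGF2 and FGFBP1 no longer lay past it without either SYK-WT EGF library, nor did FGF2 with only these groups in the fit.

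No gene of the 8 passed the test of a difference between the EGF responses of the genotypes (limma), where 0.00826% of all tested loci, 1 locus, passed and 1070 had an unadjusted p under 0.05. Without SYK-WT replicate 1 this difference was -0.55 for FGF2, -0.455 for FGFR1 and 1.11 for FGFR3. This difference holds the SYK-WT response, the contrast used to choose the genes. Nothing is therefore read from these values or from the count of genes that passed. The median log2 difference of the 8 genes was -0.17 under EGF in SYK-KO cells, beside 0.0014 over all tested loci, and 0.26 between the untreated genotypes, beside -0.0081. These medians hide opposite changes of single genes.

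**Figure D2:**
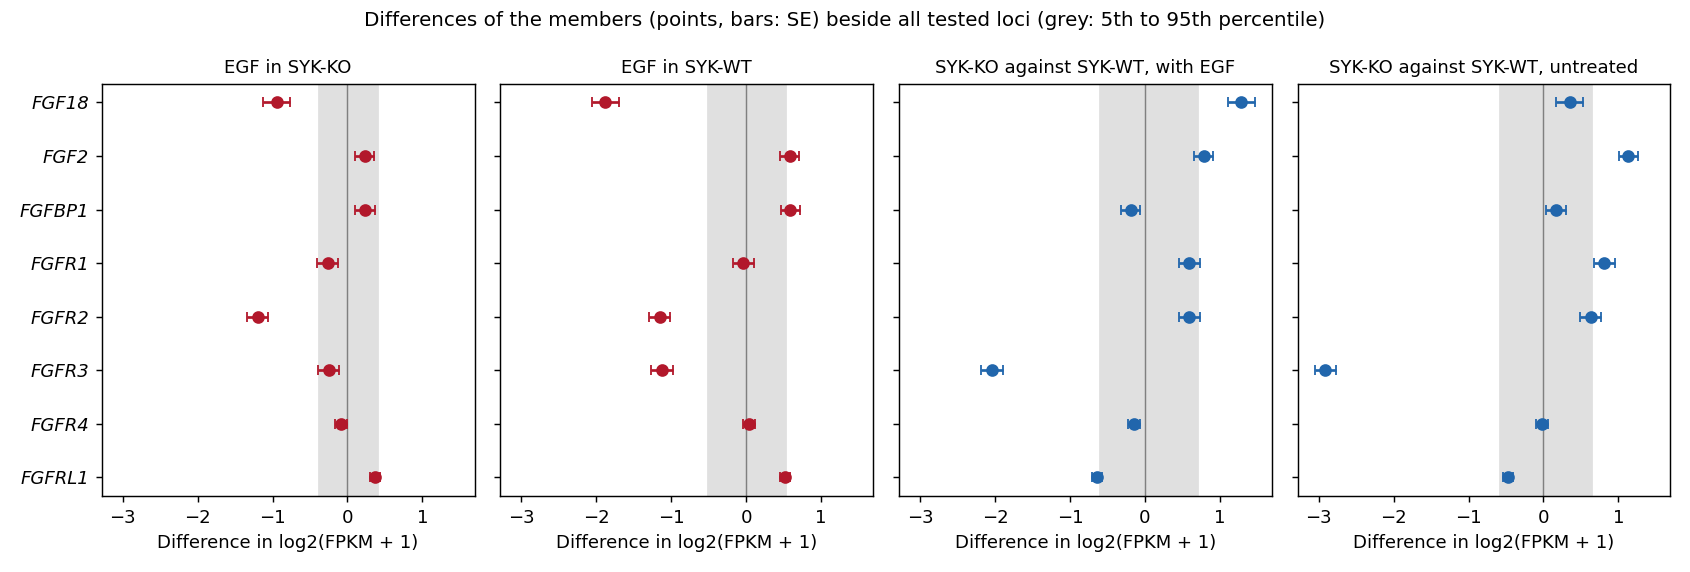
Difference in log2(FPKM + 1) of the 8 genes (points, with SE bars) under EGF in SYK-KO, EGF in SYK-WT, SYK-KO against SYK-WT with EGF, and SYK-KO against SYK-WT untreated; the grey band holds all tested loci except the lowest and highest tails. FGF18 lies at -0.95 and -1.88 in the EGF panels, FGFR3 at -2.04 and -2.91 in the genotype panels, and FGFR4 within the band in all of them.

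The make-up of the receptor transcripts followed from these levels. The summed FPKM of FGFR1 to FGFR4 was 55.4 and 59.9 in SYK-KO EGF, 66.4 and 72.8 in SYK-WT EGF, 67.5 and 71.1 in SYK-KO, and 97.1 and 112 in SYK-WT libraries. FGFR3 held 9.61% and 9.79% of that sum in SYK-KO EGF, 38.3% and 36.6% in SYK-WT EGF, 9.52% and 10.2% in SYK-KO, and 50.6% and 61.4% in SYK-WT libraries. It was thus a minor receptor transcript in all SYK-KO libraries and the leading one in all SYK-WT libraries. FGFR1 held 50.3% and 51.3% in SYK-KO EGF, 27.4% and 27.5% in SYK-WT EGF, 50.8% and 50.9% in SYK-KO, and 24.0% and 14.8% in SYK-WT libraries. The ratio of FGFR1 to FGFR3 FPKM was 4.97 to 5.34 over the 4 SYK-KO libraries, treated or not, and 0.242 to 0.750 over the 4 SYK-WT libraries.

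FGFR4 made up 31.8% to 37.7% of the sum in the SYK-KO libraries and 21.3% to 35.2% in the SYK-WT libraries, although its own level differed little. FGFR2 made up 2.33% and 2.15% in SYK-KO EGF, 0.806% and 0.688% in SYK-WT EGF, 5.34% and 6.99% in SYK-KO, and 2.13% and 2.44% in SYK-WT libraries. Set against the kinase-less FGFRL1, the sum of the receptors with a kinase was 3.17 and 3.40 times its FPKM in SYK-KO EGF, 2.39 and 2.62 times in SYK-WT EGF, 4.99 and 5.34 times in SYK-KO, and 5.34 and 5.59 times in SYK-WT libraries. The EGF libraries had the 4 lowest values of that ratio. These are shares of transcripts per length, not of receptor protein.

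**Figure D3:**
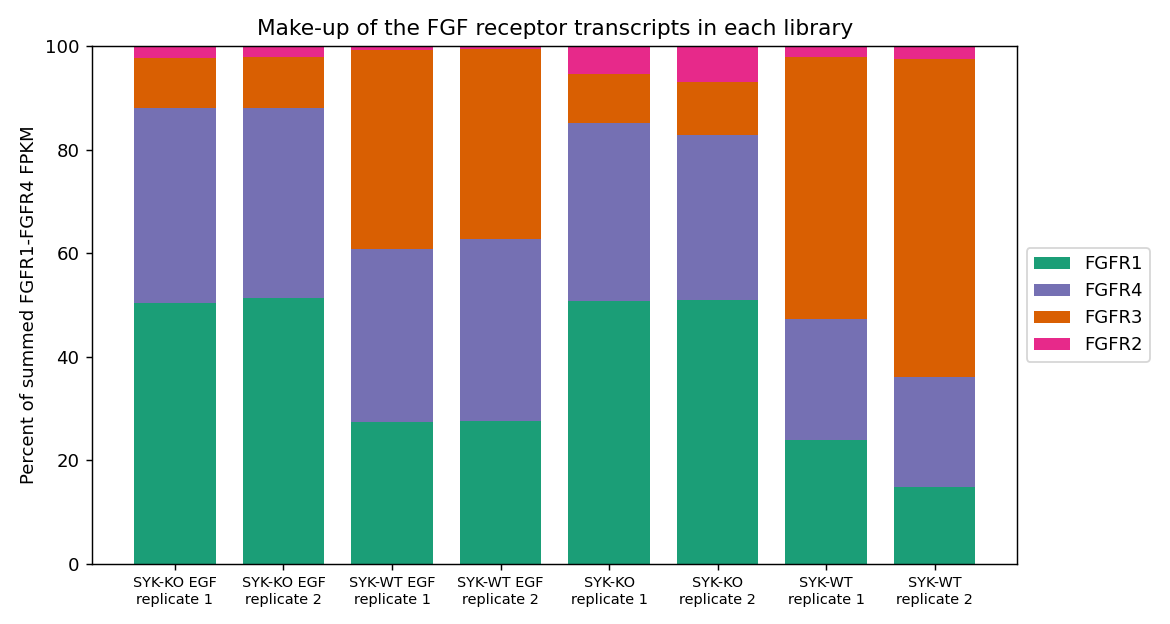
Share of FGFR1, FGFR4, FGFR3 and FGFR2 in their summed FPKM (percent, stacked) in each of the 8 libraries. FGFR3 makes up 9.52% to 10.2% in the 4 SYK-KO libraries and 36.6% to 61.4% in the 4 SYK-WT libraries, and FGFR1 50.3% to 51.3% in the SYK-KO libraries.

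The order of the levels changed with the groups. In SYK-KO EGF cells it ran FGFBP1, FGFR1, FGFR4, FGF18, FGFRL1, FGF2, FGFR3 and FGFR2, and no neighbours overlapped. In SYK-WT EGF cells it ran FGFBP1, FGFRL1, FGFR3, FGFR4, FGFR1, FGF18, FGF2 and FGFR2, with FGFR3 and FGFR4 overlapping. In SYK-KO cells it ran FGFBP1, FGF18, FGFR1, FGFR4, FGFRL1, FGFR3, FGF2 and FGFR2, without overlap. In SYK-WT cells it ran FGFBP1, FGFR3, FGF18, FGFR4, FGFR1, FGFRL1, FGFR2 and FGF2, where FGFR4 and FGFR1, FGFR1 and FGFRL1, and FGFR2 and FGF2 overlapped.

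The lists of pathway genes were drawn up with earlier results of these data known. P-values of list genes, also under EGF in SYK-WT cells, may therefore not be independent of those results. Of 23 co-receptors, proteoglycans and extracellular partners, 14 passed the filter. The klothos KL and KLB, co-receptors for endocrine FGFs, named after their values were seen, peaked at 0.0355 and 0.0356 FPKM. Of the 14, 6 rose and 5 fell in SYK-KO against SYK-WT cells with EGF, and 5 rose and 5 fell untreated, beside 43.6% and 40.5% of all tested loci called in those comparisons. Their median log2 difference was 0.096 with EGF and 0.086 untreated, beside -0.021 and -0.0081 over all loci. The counts include GPC3 and, with EGF alone, GPC2, whose SYK-WT libraries were mostly or all below 1 FPKM, and ANOS1, whose SYK-KO libraries were all below it. These 3 passed the filter through the genotype in which they were high, so their calls support no difference. The syndecans, membrane proteoglycans that carry heparan sulfate, did not move together. SDC2 averaged 171 FPKM in SYK-KO and 88.1 FPKM in SYK-WT cells (log2 difference 0.95 ± 0.0675, SE; limma adjusted p = 6.89e-05), and SDC1 averaged 134 FPKM in SYK-KO and 221 FPKM in SYK-WT cells (-0.71 ± 0.0738; limma adjusted p = 0.000367). HSPG2, the basement membrane proteoglycan perlecan, averaged 54.3 FPKM in SYK-KO and 94.1 FPKM in SYK-WT cells (-0.77; limma adjusted p = 0.00102). SDC4 was 0.40 higher untreated on the log2 scale (limma adjusted p = 0.00179). With EGF, SDC4 was 0.20 higher (limma adjusted p = 0.0295), lost without any of the SYK-KO or EGF libraries (0.0584 to 0.15). Named after their values were seen, the glypican GPC4 and the cadherin CDH2 also rose in both states, and NRP1 and L1CAM fell in both.

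Under EGF in SYK-KO cells, 1 of these 14 rose (SDC4) and 3 fell (SDC1, SDC2 and FLRT3, the last named after its values were seen). Under EGF in SYK-WT cells 1 rose and 4 fell, the same 4 and ANOS1, which passed the filter mainly through its untreated SYK-WT libraries. Over all tested loci 11.8% were called in SYK-KO cells, and in SYK-WT cells 26.7%. The median log2 difference of the 14 was -0.10 in SYK-KO cells and -0.21 in SYK-WT cells, beside 0.0014 and 0.0077 over all loci. SDC2 averaged 119 FPKM with EGF and 171 FPKM without it in SYK-KO cells (log2 difference -0.52; limma adjusted p = 0.00323), and 58.2 FPKM with EGF and 88.1 FPKM without it in SYK-WT cells (-0.59; limma adjusted p = 0.00103). SDC1 fell by 0.28 in SYK-KO cells (limma adjusted p = 0.0481), lost under 8 alternatives (0.0653 to 0.272), and by 0.38 in SYK-WT cells (limma adjusted p = 0.00893), a pass that was lost without SYK-WT EGF replicate 2 (0.0691). SDC4 rose by 0.33 in SYK-KO cells (limma adjusted p = 0.012), lost without any of the 4 SYK-KO libraries (0.068 to 0.109), and by 0.54 in SYK-WT cells (limma adjusted p = 0.000971).

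Of 24 enzymes that build or edit heparan sulfate, 15 passed the filter, and in SYK-KO against SYK-WT cells 3 rose and 3 fell with EGF (43.6% of all tested loci called) and 3 rose and 4 fell untreated (40.5%), counts near the share over all loci. Under EGF, 1 rose and 2 fell in SYK-KO cells (11.8% of all loci called), and 1 rose and 6 fell in SYK-WT cells (26.7%). The median log2 difference was -0.077 between genotypes with EGF, -0.16 between them untreated, -0.061 under EGF in SYK-KO cells and -0.16 under EGF in SYK-WT cells. The riser was HS3ST1, a sulfotransferase best known for the antithrombin-binding site of heparan sulfate. It averaged 55.8 FPKM with EGF and 23.7 FPKM without it in SYK-KO cells (log2 difference 1.20 ± 0.178, SE; limma adjusted p = 0.00584), a pass that was lost without SYK-KO EGF replicate 1 (0.0597) or SYK-KO replicate 2 (0.0586). In SYK-WT cells it averaged 82.7 FPKM with EGF and 28.9 FPKM without it (1.51; limma adjusted p = 0.0011). NDST1 and SULF2, named after their values were seen, fell in both genotypes. B3GAT3, a glucuronosyltransferase of the linker to the core protein, averaged 20.3 FPKM in SYK-KO and 27.2 FPKM in SYK-WT cells (-0.40; limma adjusted p = 0.014), lost without SYK-KO replicate 1 (0.0913). B4GALT7 and XYLT2, which act early in building the chain, passed no test.

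All 26 receptor adaptors and effectors passed the filter. In SYK-KO against SYK-WT cells 6 rose and 7 fell with EGF (43.6% of all tested loci called), and 5 rose and 7 fell untreated (40.5%), counts near the share over all loci. Under EGF 4 rose and 2 fell in SYK-KO cells (11.8% of all loci called) and 5 rose and 2 fell in SYK-WT cells (26.7%). The median log2 difference was 0.014 between genotypes with EGF, -0.0046 between them untreated, 0.079 under EGF in SYK-KO cells and 0.086 under EGF in SYK-WT cells. GRB2, the adaptor that brings SOS to the receptor complex, averaged 61.9 FPKM in SYK-KO and 78.0 FPKM in SYK-WT cells (log2 difference -0.33 ± 0.0619, SE; limma adjusted p = 0.00475). FRS2, the docking protein of FGF receptors, named after its values were seen, was 0.40 lower. STAT3 averaged 102 FPKM in SYK-KO EGF and 134 FPKM in SYK-WT EGF cells (-0.40; limma adjusted p = 0.00208), and AKT1 passed no test. MAP2K2, a kinase upstream of ERK, was 0.30 higher in untreated SYK-KO cells (limma adjusted p = 0.0079), a pass that was lost without SYK-KO replicate 1 (0.0738).

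Of 22 feedback inhibitors and targets of FGF and ERK signalling, 19 passed the filter. Under EGF 7 rose and 1 fell in SYK-KO cells (11.8% of all tested loci called), and 5 rose and 3 fell in SYK-WT cells (26.7%). The median log2 difference was 0.13 in SYK-KO cells and 0.15 in SYK-WT cells. DUSP5, a phosphatase that binds ERK in the nucleus, averaged 197 FPKM with EGF and 86.7 FPKM without it in SYK-KO cells (log2 difference 1.18 ± 0.0662, SE; limma adjusted p = 0.00015), and 159 FPKM with EGF and 63.1 FPKM without it in SYK-WT cells (1.32; limma adjusted p = 3.63e-05). The gene that fell in both genotypes was SPRY1, a receptor kinase antagonist named after its values were seen, with log2 differences of -0.64 in SYK-KO cells and -0.97 in SYK-WT cells. In SYK-KO against SYK-WT cells 4 rose and 5 fell, with EGF (43.6% of all loci called) and untreated (40.5%) alike. MYC averaged 75.4 FPKM in SYK-KO EGF and 130.4 FPKM in SYK-WT EGF cells (-0.78 ± 0.0596, SE; limma adjusted p = 9.81e-05), and 79.3 FPKM in SYK-KO and 115 FPKM in SYK-WT cells (-0.53; limma adjusted p = 0.000529). CCND1, which encodes cyclin D1, was 0.42 lower in untreated SYK-KO cells (limma adjusted p = 0.00446), and FOS passed no test.

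Of 10 splicing regulators tied to the alternative FGFR exons, 9 passed the filter, and 2 fell in SYK-KO against SYK-WT cells in both states, HNRNPF and RBFOX2, the second named after its values were seen, beside 43.6% of all tested loci called with EGF and 40.5% untreated. The median log2 difference of the 9 was -0.065 with EGF and -0.22 untreated. HNRNPF averaged 73.2 FPKM in SYK-KO and 105 FPKM in SYK-WT cells (log2 difference -0.51 ± 0.0546, SE; limma adjusted p = 0.000422). Under EGF none passed in SYK-KO cells (limma) and 1 fell in SYK-WT cells, HNRNPM (-0.31; limma adjusted p = 0.0331), lost under 8 alternatives (0.0502 to 0.168). PTBP1 and HNRNPH1 passed no test. FPKM of whole loci do not tell the FGFR isoforms apart. Of 12 Wnt and beta-catenin targets, listed because FGF18 is a known member of that class, 2 passed the filter. RNF43 passed it through the SYK-KO libraries alone, with means of 1.17 FPKM in SYK-KO EGF and 0.385 FPKM in SYK-WT EGF cells, so no test of its genotype difference is given. ZNRF3 averaged 3.59 FPKM in SYK-KO EGF and 2.58 FPKM in SYK-WT EGF cells (0.36; limma adjusted p = 0.011), a pass that was lost without either SYK-WT EGF library (0.0627 and 0.0568) or SYK-KO EGF replicate 2 (0.0708).

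**Figure D4:**
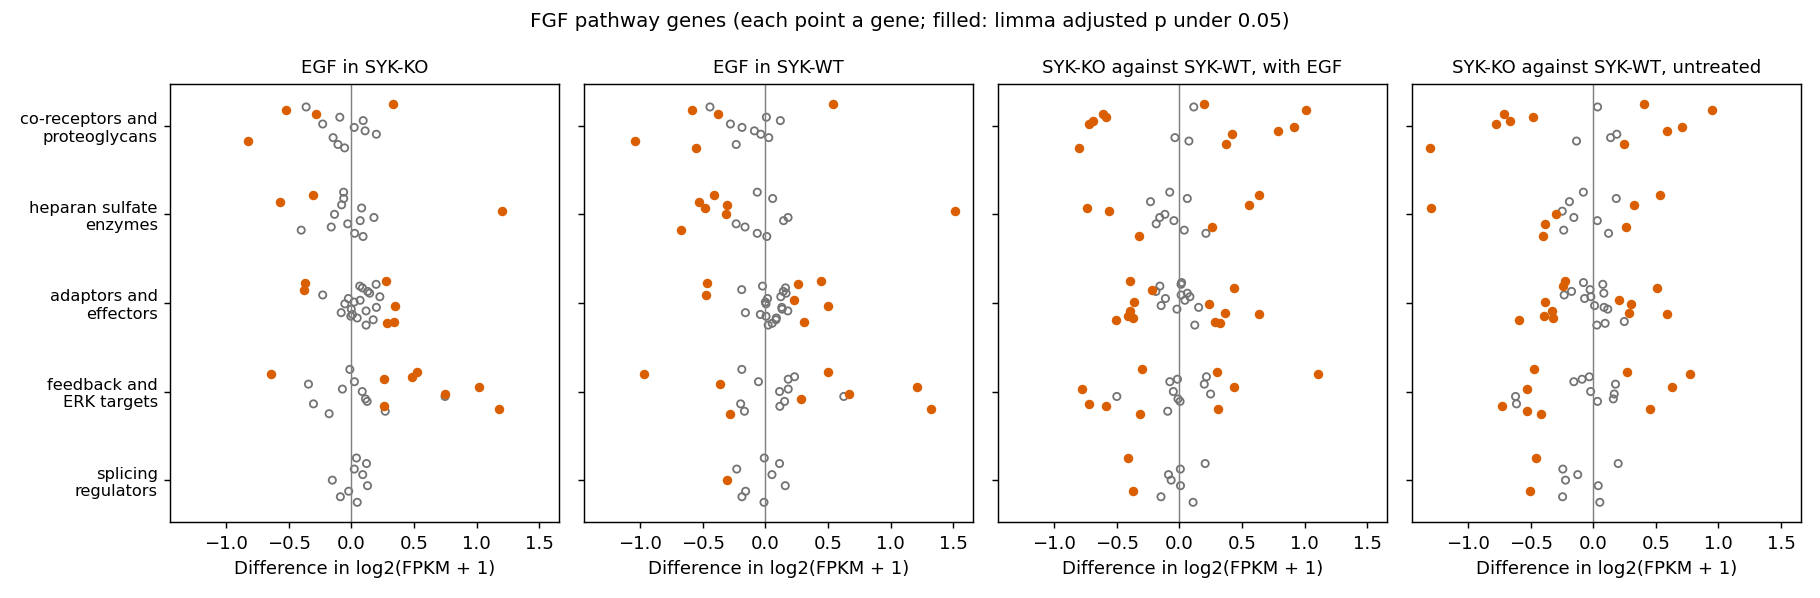
Difference in log2(FPKM + 1) of the tested genes of 5 lists (each point a gene; filled points passed limma's test), under EGF in SYK-KO, EGF in SYK-WT, SYK-KO against SYK-WT with EGF, and SYK-KO against SYK-WT untreated. Every list but the splicing regulators holds filled points on both sides of 0 in each panel; DUSP5 at 1.32 and HS3ST1 at 1.51 are the rightmost under EGF in SYK-WT.

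The loci whose profile was nearest to that of FGF18, by the root mean square difference of centred log2(FPKM + 1) over the 8 libraries among 11629 loci, were PTPRR (0.281), LINC00868 (0.290), SCARA3 (0.318), TNS3 (0.324) and FGFR2 (0.325). PTPRR, a phosphatase of the receptor type that acts on ERK, averaged 26.9 FPKM in SYK-KO EGF, 10.6 FPKM in SYK-WT EGF, 43.1 FPKM in SYK-KO and 28.7 FPKM in SYK-WT cells. TNS3, a tensin of focal adhesions, averaged 6.05 FPKM in SYK-KO EGF, 2.03 FPKM in SYK-WT EGF, 11.8 FPKM in SYK-KO and 5.55 FPKM in SYK-WT cells. Nearest to FGFBP1 were PLPP3 (0.0789), B4GALT3 (0.0810) and MMUT (0.0816). B4GALT3, a galactosyltransferase, averaged 27.6 FPKM in SYK-KO EGF, 32.2 FPKM in SYK-WT EGF, 24.2 FPKM in SYK-KO and 22.1 FPKM in SYK-WT cells. These loci were picked for likeness over the same libraries, so their agreement is a description.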

How the data were processed

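Total RNA of 8 libraries was sequenced with paired ends on an Illumina platform, and the sample titles gave each group and replicate number. The FPKM values per library and locus were deposited by the authors, who worked on build hg19 with Cuffdiff 2.2.1.3, Cufflinks and TopHat, per the submitters' processing notes. Parameters, library scaling and read strand were not given in the sources used here, so overlapping and antisense genes, and gene families with near-identical copies such as the keratins, are uncertain. The q-values come from the authors' deposited table. Symbols were found for 27541 of 27757 loci through RefSeq or GENCODE accessions. The 12112 loci that reached 1 FPKM in 2 or more libraries entered limma 3.58.1 (R 4.3.3) as log2(FPKM + 1), with trended variances and a mean for each of the 4 groups, which shared the spread (4 residual degrees of freedom, prior 3.87). Fold changes on this scale understate the change of low genes. Two-sided p-values received the Benjamini-Hochberg adjustment over all tested loci, with a threshold of 0.05. The fit was run on simulated data with independent normal noise of the same spread in every group. That run checks the code and not the p-values of these libraries. FPKM are not counts, and no count model was used. The depth estimate holds only if each library was scaled by its own fragments, and intervals and SDs do not include counting error separately. Plots used matplotlib 3.10.9, and tables pandas 2.3.3 (python 3.11.15).

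The 8 genes and the lists were chosen with earlier results of these data known, so p-values of their genes may not be independent of those results. Named are the 8 genes, the 4 most abundant tested genes of each list whose locus holds 1 symbol, the 5 loci nearest to FGF18 and the 3 nearest to FGFBP1 in profile, and SYK. Further genes were named after their values were seen, as stated beside each. The lists covered other FGF ligands, co-receptors and proteoglycans, heparan sulfate enzymes, adaptors and effectors, feedback inhibitors and targets, splicing regulators, Wnt targets, and markers of epithelium, fibroblasts, endothelium and leukocytes. Motif matches were counted in RefSeq windows of GRCh38.p14, and gene coordinates are those deposited, in hg19. Alternatives were a pseudocount of 0.1, no filter, equalised library medians, a replicate block, only the groups of the comparison, library quality weights, no mean-variance trend, and each library left out.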

Additional observations from a re-analysis of the deposited data

Results flagged for a closer look

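MYC, which encodes a transcription factor downstream of growth factor signalling, had a mean lower with EGF in SYK-KO cells and higher with EGF in SYK-WT cells, although neither difference was called. It had 76.2 and 74.7 FPKM in SYK-KO EGF libraries, against 78.9 and 79.8 FPKM in SYK-KO libraries, and 133 and 128 FPKM in SYK-WT EGF libraries, against 118 and 111 FPKM in SYK-WT libraries. Every EGF library of SYK-KO cells was thus below, and every EGF library of SYK-WT cells above, the untreated libraries of its genotype. MYC was picked out for these opposite directions after the values of several genes were looked at. With 2 libraries per group such an order can arise by chance. The share of all tested loci with this order is not given here, so nothing is read from the order. The log2 difference with EGF was -0.072 in SYK-KO cells (limma, Benjamini-Hochberg adjusted p = 0.493) and 0.18 in SYK-WT cells (limma adjusted p = 0.0561). The response in SYK-KO cells minus that in SYK-WT cells was -0.25 (limma, Benjamini-Hochberg adjusted p = 0.465), so the test of the difference itself did not pass.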

How the results depend on the processing

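FGF18 under EGF in SYK-KO cells stayed negative under every alternative run, but the call ended with no filter on low values (log2 difference -0.95, limma adjusted p = 0.0517) and without any of the 4 SYK-KO libraries, with log2 differences from -0.99 to -0.91 over the libraries left out. The number of the 8 genes called ran from 1 to 6 over the libraries left out under EGF in SYK-KO cells, and from 0 to 4 for the difference of the EGF responses, where the 4, which include FGF18, came without SYK-WT replicate 1. Directions turned in values that had passed no test. Most of them lay near 0, but the difference of the responses of FGFR1 was -0.22 with all libraries. Over the libraries left out, FGFR1 ranged from -0.46 to 0.012 for the difference of the responses (highest without SYK-WT replicate 2) and from -0.27 to 0.19 for EGF in SYK-WT cells (highest without SYK-WT replicate 1; 0.024 when SYK-WT EGF replicate 1 was dropped). FGFR2 ranged from -0.23 to 0.15 for the difference of the responses, with 0.098 when SYK-WT replicate 1 was dropped, and was 0.36 with a pseudocount of 0.1. FGFR4 ranged from -0.061 to 0.13 for EGF in SYK-WT cells (lowest without SYK-WT EGF replicate 2), and from -0.055 to 0.016 for untreated SYK-KO against SYK-WT cells (highest without SYK-WT replicate 2). The cause was not tested.

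Over all loci, EGF in SYK-KO cells gave 1429 calls, 2646 with only these groups in the fit, 3024 with library quality weights and 319 to 2984 with a library left out. EGF in SYK-WT cells gave 3238, 1254, 1877 and 1255 to 5108 in the same settings. SYK-KO against SYK-WT untreated gave 4902, 3007 with only these groups, and 2460 to 5935 with a library left out. With EGF it gave 5277, and 2952 to 6835 with a library left out. The difference of the responses gave 1, 2 with no filter, 2 with weights, 3 with no trend, and 0 to 867 with a library left out. Equalised library medians moved no split of higher and lower calls by over 10 percentage points. With the replicate number as a block, FGF18 under EGF in SYK-KO cells was -0.95 (limma adjusted p = 0.00656). The differences between replicates correlated at -0.381 to 0.27 between groups. The correlations with SYK-WT EGF were negative and the others positive, so whether the replicate numbers pair the libraries is not settled. Where a group is left with a single library, that library is assumed to vary like the other groups. Without counts, the depth behind low values such as those of FGFR2 and FGF2 is known only as an estimate.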

Other observations

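Around FGFR3, in a window of 1 Mb on either side that was chosen after seeing the data, 25 other loci were tested. These 25 include FGFRL1, a member that fell in both genotype comparisons. In SYK-KO against SYK-WT cells 3 of them rose and 6 fell with EGF, with log2 differences from -1.15 to 0.83 (limma). Untreated, 1 rose and 7 fell, with log2 differences from -1.27 to 0.34. Over all tested loci 43.6% were called with EGF and 40.5% untreated. FGFR3 itself, at -2.04 with EGF and -2.91 untreated, was outside both ranges. Around FGFR2, 7 other loci were tested, of which 5 rose and 0 fell with EGF, and 3 rose and 0 fell untreated, beside the same shares over all loci. The untreated count was near its share, and so few loci support no statement about the region. Windows around the other members were also computed and are not described here. The 7 loci around FGFR2 had a median log2 difference of 0.74 with EGF and 0.54 untreated, beside 0.59 and 0.63 for FGFR2 itself.

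The epithelial and clear cell carcinoma markers also moved with the groups. In SYK-KO against SYK-WT cells 1 of the 8 rose and 2 fell with EGF (43.6% of all tested loci called), and 2 rose and 2 fell untreated (40.5%). CDH1, the adhesion protein E-cadherin, averaged 33.1 FPKM in SYK-KO EGF, 61.6 FPKM in SYK-WT EGF, 41.3 FPKM in SYK-KO and 87.8 FPKM in SYK-WT cells. Its log2 difference between genotypes was -0.88 with EGF (limma adjusted p = 0.000445) and -1.07 untreated (limma adjusted p = 0.000189). NAPSA, a protease used as a clear cell carcinoma marker, averaged 1.23 FPKM in SYK-KO EGF, 4.59 FPKM in SYK-WT EGF, 1.01 FPKM in SYK-KO and 5.25 FPKM in SYK-WT cells (untreated -1.65; limma adjusted p = 8.37e-05). Both were named after their values were seen. Under EGF 3 of the 8 rose and 0 fell in SYK-KO cells (11.8% of all loci called), and 3 rose and 1 fell in SYK-WT cells (26.7%), where CDH1 fell (-0.50; limma adjusted p = 0.00862). The risers were the keratins KRT8, KRT18 and KRT19, whose reads can be shared with pseudogene copies. In SYK-KO cells the call of KRT19 ended under 7 alternatives (limma adjusted p from 0.0544 to 0.159), that of KRT18 without SYK-KO EGF replicate 1 (0.0709) or SYK-KO replicate 2 (0.063), and that of KRT8 without SYK-KO EGF replicate 1 (0.0552). KRT18 averaged 4801 FPKM with EGF and 3101 FPKM without it in SYK-KO cells, and 3879 FPKM with EGF and 1933 FPKM without it in SYK-WT cells. EPCAM, an epithelial adhesion protein, passed no test, with 527 FPKM in SYK-KO EGF, 551 FPKM in SYK-WT EGF, 469 FPKM in SYK-KO and 487 FPKM in SYK-WT cells. The part of these markers in the results of the FGF genes was not tested.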
